A study of Mus musculus with 8 samples.

Results

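OT7 is a lineage of mouse skin squamous cell carcinoma (SCC) that was followed from a well differentiated stage (WD-SCC) to a poorly differentiated one (labelled PD/S-SCC, shortened to PD-SCC). The samples were those with OT7 in their title, 2 arrays of WD-SCC and 2 of PD-SCC, which is 4 of the 8 arrays of the series. The other 4 came from lineages OT14 and OT15, with 1 array for each stage of each lineage. All tumours began as spontaneous or DMBA-TPA induced SCCs of K14-HPV16 mice, in which the promoter of keratin 14, active in basal keratinocytes, drives papillomavirus genes, so both stages carry that transgene. They were grown orthotopically in nude mice, hosts that lack most T cells and keep other blood cells, fibroblasts and vessels. Strain was given as FVB/C57/Bl6 for every sample, and no age was given. Suspensions were depleted of haematopoietic and endothelial cells, and cells positive for α6-integrin and CD34, called cancer stem cells in the labels, were sorted from each tumour. The titles call the arrays biological replicates, but nothing says if a stage's 2 arrays stem from different tumours or animals, and 1 WD-SCC array has no number. It is called WD-SCC array 1 here, and p-values measure only the spread between these arrays, which may be technical. OT7 is 1 lineage, so its arrays say nothing of the spread between tumours of different origin.

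Squamous carcinomas keep part of the programme of the epidermis. Basal keratinocytes carry keratins 5 and 14 and sit on laminin through hemidesmosomes, and cells that leave this layer switch on cornified envelope genes. In poorly differentiated and spindle tumours this programme is often lost, along with the junctions that tie epithelial cells together, while genes of mesenchymal cells and of division may be higher. α6-integrin and CD34 together mark the cells of mouse skin tumours that are best able to start a new tumour on transplantation.

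Each value is the log2 level of a gene on an array, taken from the probe set with the highest mean over all 8 arrays. Where a gene had several probe sets the others could differ, and their differences are given for part of the genes only. Of 45141 probe sets, 28898 carried 1 gene symbol, and they represented 17097 genes. The arrays were scaled together, and OT7 medians lay between 3.67 and 3.74. The highest of 15 bacterial control probe sets was 4.13 on both WD-SCC arrays and 3.72 and 3.63 on the PD-SCC arrays. It serves as a background level, on the assumption that these controls had no spiked target. A further 12 bacterial controls, of the r2 design, read higher, and with them the level would be 5.15 and 5.36 on the WD-SCC arrays and 3.99 and 3.93 on the PD-SCC arrays. Whether any of these controls had been spiked is not given in the sources used here. Every bound and every gene called below background rests on that assumption. Between 49.7% and 61.6% of genes were above the level of the 15 controls on each OT7 array, more on both PD-SCC arrays than on either WD-SCC array. A nonspecific control of high GC content read 8.53 and 8.49 on the WD-SCC arrays and 6.98 and 6.66 on the PD-SCC arrays. The background thus moved with stage, and its part in the differences below was not tested. Across genes, which are not independent replicates, the WD-SCC arrays correlated at 0.944 and the PD-SCC arrays at 0.979, and arrays of different stages at 0.844 to 0.864. The median gap between the arrays of a stage was 0.254 in WD-SCC and 0.156 in PD-SCC. Outside OT7 the OT15 WD-SCC array stood apart, since Cd34 read 3.58 there, below its background level of 4.37, although the cells were sorted for CD34. Xist, a gene of X inactivation, read 4.01 on that array, also below background, and 9.45 on the OT15 PD-SCC array. The Y-linked gene Eif2s3y read 5.47 and 3.43 on these 2 arrays, while Y-linked Kdm5d and Uty were below background on both. The part of this in the comparisons with OT15 below was not tested.

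The first question was how the sorted cells of PD-SCC differed from those of WD-SCC within OT7. A gene was called where its adjusted p was under 0.05 (limma with Benjamini-Hochberg adjustment over 17097 genes, two-sided), and "rose" and "fell" are used below for called genes, for PD-SCC relative to WD-SCC. In all, 1551 genes (9.07%) were called, of which 1061 rose (6.21%) and 490 fell (2.87%). Among fitted differences of 16-fold or more, falls prevailed, 91 against 15 rises. The split depended on the scaling, with 644 rises and 625 falls after cyclic loess and 794 rises and 1149 falls with each array scaled to its 75th percentile, which moved the median difference over all genes from -0.08 to -0.43. Without PD-SCC array 1 or without PD-SCC array 2 no gene passed in limma, with 3157 and 2818 at an unadjusted p under 0.05. The spread then comes from the WD-SCC pair alone, while with any 1 of the 4 arrays left out the difference of Krt5 lay between -7.27 and -7.12 and that of Dsp between -7.58 and -7.25. Without WD-SCC array 1 the count was 1463 (770 rises and 693 falls) and without WD-SCC array 2 it was 1857 (1130 and 727). Where every array of the dimmer stage was at or below its background, which held for 309 of the called genes, the fold is a lower bound set by that background and written "at least". For another 89 rises and 36 falls the dimmer stage was above background on 1 of its 2 arrays. With the r2 controls in the background level, 506 of the 1061 rises would have only a bound, against 206 without these controls. Of the 506, 100 would have no fold. Among the 490 falls 109 would have only a bound, against 103. Of the 103 bounded falls, 33 would be at or below this higher level in both stages, as would 2 of the 206 bounded rises. Where a bound could still be given, it would be lower by 1.12 for rises and by 0.29 for falls on the log2 scale.

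The markers used for the sort were measured first. Itga6, which encodes α6-integrin, read 8.15 and 7.99 in WD-SCC and 6.67 and 6.14 in PD-SCC and fell by 1.67 (SE 0.24, adjusted p = 0.0379). Cd34 read 7.0 and 6.72 in WD-SCC and 6.75 and 7.40 in PD-SCC, so that the stages overlapped, and its difference of 0.21 was not past the threshold (SE 0.28, adjusted p = 0.645). Both genes were thus well above background on all 4 arrays. Ptprc, the pan-leukocyte gene, stayed between 2.80 and 3.16 and below background on each of them. Xist read 9.81 to 10.15, while the Y-linked genes Eif2s3y and Uty were below background on all 4 arrays, and Kdm5d exceeded it only on WD-SCC array 1.

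The late differentiation programme of the epidermis was lower in PD-SCC. Of 35 late differentiation genes, most of the cornified envelope, 21 fell and none rose (60% called, against 9.07% of all genes). The median difference was -3.31, against -0.08 for all genes. Dmkn encodes the secreted keratinocyte protein dermokine. It read 11.19 and 11.70 in WD-SCC and 3.21 and 3.13 in PD-SCC, at least 218-fold lower (adjusted p = 0.0132). Lce3a, a late cornified envelope gene, read 11.24 and 11.78 against 3.22 and 3.31 and was at least 228-fold lower. Small proline-rich genes, which encode cross-linked envelope proteins, followed, with Sprr2d at least 144-fold, Sprr2f at least 118-fold and Sprr2h at least 95.9-fold lower. Krtdap, a gene of differentiating keratinocytes, read 8.75 and 9.15 against 3.16 and 3.21. All of these were below background on both PD-SCC arrays, so their levels there have no order. Lce3c fell by 5.70 and kept a level of 6.52 and 6.37 in PD-SCC. Lor, which encodes loricrin, read 7.50 and 7.64 in WD-SCC and 4.42 and 4.20 in PD-SCC. Of the suprabasal keratins, Krt1 differed by 0.07 and Krt10 by -0.34, and neither passed. These differences do not show that either gene was expressed in WD-SCC or kept in PD-SCC. Without WD-SCC array 1 the list had 21 falls and no rise, of which 20 were among the 21 above, and without WD-SCC array 2 it had 21 falls, of which 19 were.

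Genes outside the late differentiation list also stood among the 15 falls with the largest fitted differences over all genes. Asprv1, which encodes a protease of the upper epidermis, read 11.42 and 11.93 in WD-SCC and 4.03 and 4.12 in PD-SCC and fell by 7.60 (SE 0.22, adjusted p = 0.0133). Psca, a surface antigen gene, was at least 136-fold lower, and Nccrp1 at least 94.6-fold lower. Mal, a lipid raft protein gene, fell by 6.89 and Tmem40 by 6.83. Il24, a cytokine gene of the chemokine and cytokine list below, read 9.75 and 10.90 against 3.65 and 3.77. C4b, which encodes complement C4, read 10.64 and 9.09 against 3.54 and 3.21 and was at least 73.1-fold lower.

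The start regions of the falling differentiation genes were searched for the AP-1 element, TGANTCA, because AP-1 factors act at many keratinocyte differentiation genes. The search took the 250 bases before each start in RefSeq (build GRCm38.p6), on both strands, and counted a gene once if any listed start held a match. Of 19 falling genes of the list with a listed start, 10 held a match (52.6%). Of all 30 genes of the list with a start, called or not, 13 did (43.3%). The share was 931 of 13605 tested genes (6.84%), 56 of 376 genes that fell (14.9%) and 42 of 877 that rose (4.79%). A match describes the letters and is not evidence of binding. Shown are the 3 falling genes of the list with the smallest p that hold the element in the last 150 bases before the start, 5′ to 3′ on the strand of the gene, with the element in capitals. They lie at chr7:30763606-30763755 (plus strand) for Dmkn, chr7:30787755-30787904 (plus strand) for Krtdap and chr3:92083143-92083292 (minus strand) for Lor.
Dmkn: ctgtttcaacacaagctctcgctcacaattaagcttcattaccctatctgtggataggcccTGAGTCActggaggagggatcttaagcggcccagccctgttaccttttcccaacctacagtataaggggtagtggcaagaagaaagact
Krtdap: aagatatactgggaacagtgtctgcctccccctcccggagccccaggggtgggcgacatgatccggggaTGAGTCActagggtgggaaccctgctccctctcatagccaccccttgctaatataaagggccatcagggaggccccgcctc
Lor: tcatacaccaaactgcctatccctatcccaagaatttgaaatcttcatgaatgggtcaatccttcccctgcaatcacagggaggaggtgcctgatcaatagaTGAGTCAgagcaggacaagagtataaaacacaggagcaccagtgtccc
The element begins 89 bases before the start in Dmkn, 81 in Krtdap and 48 in Lor. Dmkn has 3 starts in the table, and the others shown have 1. These are the genes whose PD-SCC levels were 3.21 and 3.13, 3.16 and 3.21, and 4.42 and 4.20.

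Basal identity was lower as well. Among 6 measured basal and stress keratins, 5 fell (83.3% called, against 9.07% of all genes, median difference -4.59). Krt5 read 11.50 and 11.39 in WD-SCC and 4.33 and 4.17 in PD-SCC, a fall of 7.19 (SE 0.14, adjusted p = 0.0132). Its partner Krt14 fell less, from 10.82 and 10.54 to 7.02 and 6.94, and so remained far above background in PD-SCC. The wound keratin Krt16 kept levels of 6.39 and 5.70, while Krt6b was below background and at least 41.1-fold lower. Trp63, the master regulator of stratified epithelium, read 8.56 and 8.0 in WD-SCC and 3.44 and 3.75 in PD-SCC. Its 4 probe sets differed by between -4.68 and -0.08, so the size depends on the probe set. Of the 26 epithelial identity factors and surface genes, 11 fell and none rose (42.3% called). Their median difference was -2.10, or -1.90 with genes below background in 1 stage at their bound and those below it in both at 0. Epcam, an epithelial adhesion gene, fell by 4.03 and Rab25, an epithelial vesicle GTPase, by 5.08. The 2 probe sets of Epcam disagreed, with differences of -4.03 and -0.56. Cdh1, which encodes E-cadherin, read 5.35 and 5.77 in WD-SCC and 2.99 and 2.85 in PD-SCC, at least 3.69-fold lower (adjusted p = 0.0183). The Esrp1 and Esrp2 splicing factors and Grhl3 were among the falls, whereas Klf5 (0.51) and Klf4 (-0.51) did not pass.

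**Figure D1:**
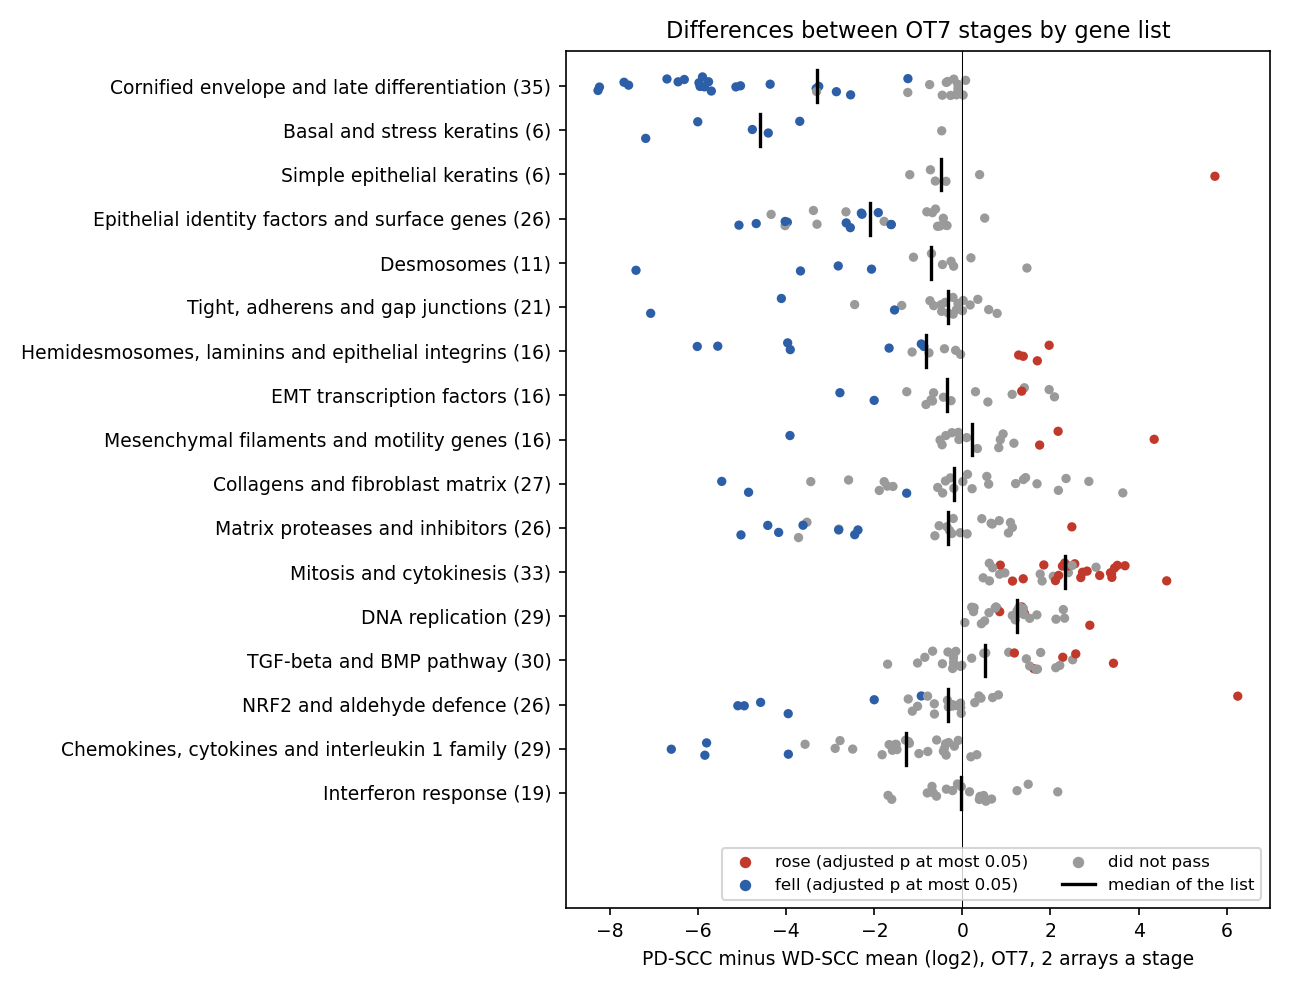
Difference between OT7 PD-SCC and WD-SCC for each gene of 17 gene lists (horizontal axis, log2 difference of the means of 2 arrays), with called rises in red, called falls in blue, genes that did not pass in grey and the median of each list as a black bar; the number of genes is beside each name. Genes below background in a stage are drawn at their fitted difference, which is not a measured size. All late differentiation genes that were called lie below 0, and mitotic genes lie above 0 throughout, with a median of 2.32.

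Cell junction genes fell in part. Of 11 desmosome genes 4 fell and none rose (36.4% called, against 9.07% of all genes). Dsp, which encodes desmoplakin, the link from desmosomes to keratin, read 10.86 and 11.11 in WD-SCC and 3.74 and 3.41 in PD-SCC and fell by 7.41 (SE 0.19, adjusted p = 0.0132). Only 1 of its PD-SCC arrays was above background. Jup (plakoglobin) fell by 2.82 and Dsc3 by 2.06, and Dsc2 was lower by a factor of at least 9.90 and below background in PD-SCC. The fitted differences of the 2 probe sets of Dsc2 were -3.68 and -0.69. Dsg2 differed by -0.70 and Pkp2 by 1.47 without passing. Among 21 tight, adherens and gap junction genes 3 fell (14.3% called). These were the claudins Cldn4, at least 112-fold lower, and Cldn3, by 4.11, and the adhesion gene Nectin4, at least 2.36-fold lower. With the r2 controls Nectin4 was at or below background in both stages, and no fold could be given. Ctnnb1 and Tjp1, which encode β-catenin and ZO-1, differed by 0.60 and 0.17 and did not pass. The list of 21 had 5 falls without WD-SCC array 1.

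The genes that anchor basal cells to the matrix split. Of 16 hemidesmosome, laminin and epithelial integrin genes, 7 fell and 4 rose (68.8% called, against 9.07% of all genes). With cyclic loess, and also with 75th percentile scaling, 7 fell and 2 rose. Falls took in 2 chains of the laminin of the epidermal basement membrane, Lamb3 (10.55 and 10.12 to 4.58 and 4.04, a fall of 6.02) and Lama3 (by 3.97), and the hemidesmosome collagen Col17a1 (9.54 and 9.42 to 4.10 and 3.75, a fall of 5.56). Itga2, a collagen receptor subunit, fell by 3.91. The 2 probe sets of Lama3 disagreed, with differences of -3.97 and -0.40. Rises came from the cytoskeletal linkers Dst (1.97) and Plec (1.70) and from Lamb1 (1.38) and Lamc1 (1.28), chains of the laminins that many non-epithelial cells make. Itgb4, the partner of α6-integrin in hemidesmosomes, differed by -1.14 without passing. The list had 4 falls and 3 rises without WD-SCC array 1, and without WD-SCC array 2 it had 4 of each.

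A simple keratin moved the other way. Krt8, a keratin of simple epithelia, read 3.23 and 4.10 in WD-SCC, below background on both arrays, and 10.13 and 8.67 in PD-SCC, at least 38.6-fold higher (adjusted p = 0.0275), or at least 17.7-fold higher with the r2 controls in the background level. Krt18, its usual partner, was high at both stages, with 9.24 and 10.00 in WD-SCC and 9.92 and 7.87 in PD-SCC, and did not pass (-0.73, adjusted p = 0.577). Krt8 alone of 6 measured simple keratins was called (16.7%, against 9.07% of all genes), and its call was lost without WD-SCC array 1.

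**Figure D2:**
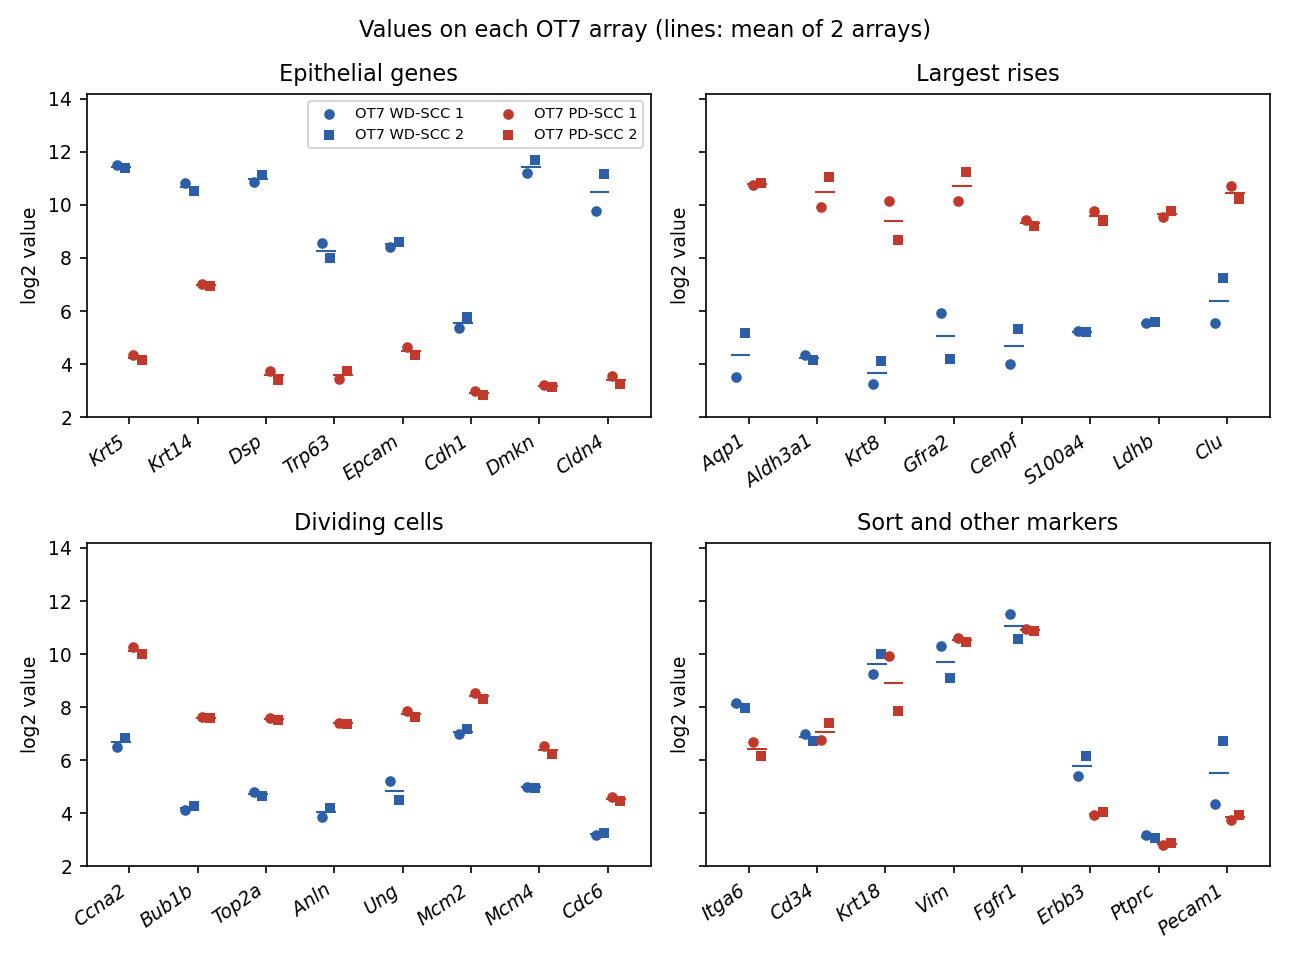
Level of 32 genes on each OT7 array (vertical axis, log2), in blue for WD-SCC and red for PD-SCC, with circles for array 1, squares for array 2 and short lines for the mean of each stage. Epithelial genes such as Krt5 lie high in WD-SCC (11.50 and 11.39) and low in PD-SCC (4.33 and 4.17), the largest rises and the dividing-cell genes show the opposite order, and Cd34, Krt18 and Fgfr1 overlap between stages.

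Mesenchymal genes were called in both directions. Of 16 transcription factors of epithelial-mesenchymal transition only Prrx1 rose (8.68 and 8.88 to 9.90 and 10.36, difference 1.35, adjusted p = 0.0478), while Id2 and Snai3 fell. Zeb1 (1.13), Twist1 (1.41) and Snai2 (-0.71) did not pass. The share called was 18.8%, against 9.07% of all genes. The list had 2 rises and 3 falls without WD-SCC array 1 and the same counts without WD-SCC array 2. Among 16 mesenchymal filament and motility genes 3 rose and 1 fell (25% called, against 9.07% of all genes), and 8 had both PD-SCC arrays above both WD-SCC arrays, against 27.8% of all genes. S100a4, a calcium-binding protein of motile cells, read 5.23 and 5.21 in WD-SCC and 9.77 and 9.38 in PD-SCC and rose by 4.36 (SE 0.19, adjusted p = 0.014). Fn1 (fibronectin) rose by 2.17 and Tpm1 (a tropomyosin) by 1.75, whereas the surface antigen gene Thy1 fell from 7.93 and 7.77 to 3.95 and 3.91. Vim, which encodes vimentin, was already 10.30 and 9.10 in WD-SCC and reached 10.60 and 10.45 in PD-SCC, a difference of 0.82 that did not pass (adjusted p = 0.31). The median of the list was 0.22, against -0.08 for all genes, and -0.14 against -0.43 with 75th percentile scaling, which shifts every gene alike.

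The matrix genes that were called fell. Of 27 collagen and fibroblast matrix genes 3 fell and none rose (11.1% called, near the 9.07% of all genes). Tnc (tenascin C) fell from 10.08 and 8.87 to 3.93 and 4.08, Bgn (biglycan) by 4.86 and Fbln1 (fibulin 1) by 1.27. The 2 probe sets of Tnc disagreed, with differences of -5.47 and -0.23, and the 3 of Fbln1 ranged from -1.27 to -0.05. This list moved with 1 array. Its genes summed to 14110 on WD-SCC array 1 and 6276 on WD-SCC array 2 in linear units, against 6303 and 7323 in PD-SCC. Its median difference was 0.24 without WD-SCC array 1 and -0.38 without WD-SCC array 2. Fibroblast markers, a separate list, summed to 9791 and 3146 in WD-SCC, against 4897 and 5714 in PD-SCC. Fewer cells of a type and less RNA per cell cannot be told apart in such pooled samples, here or for any list below. Matrix proteases and their inhibitors gave 7 falls and 1 rise of 26 (30.8% called). Mmp19 fell by 3.62, and Adam8, a membrane protease of inflamed tissue, from 8.32 and 8.82 to 4.23 and 4.07. The serpin gene Serpinb5 (maspin) was at least 11.9-fold lower. The 2 probe sets disagreed for Mmp19 (-3.62 and -0.32) and for Serpinb5 (fitted differences of -4.17 and -0.23). The rise was that of Timp3, a metalloprotease inhibitor, from 6.53 and 6.36 to 8.95 and 8.91.

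Genes of cell division were higher in PD-SCC. Of 33 genes of mitosis and cytokinesis 21 rose, against 6.21% of all genes, and none fell (median difference 2.32, or 2.19 with dim genes at their bound). Both PD-SCC arrays lay above both WD-SCC arrays for 32 of the 33, against 27.8% of all genes. Ccna2, the cyclin of S and G2 phase, read 6.51 and 6.84 in WD-SCC and 10.26 and 10.01 in PD-SCC and rose by 3.46 (SE 0.20, adjusted p = 0.014). The spindle checkpoint kinase gene Bub1b read 4.11 and 4.29 against 7.61 and 7.58. Top2a, which encodes the topoisomerase that separates sister chromatids, read 4.78 and 4.64 against 7.59 and 7.50. Cenpf, a kinetochore gene, rose most, from 4.02 and 5.34 to 9.45 and 9.19, and Anln (anillin, of the cleavage furrow) rose by 3.36. Neither array of WD-SCC reached the PD-SCC levels of these 5 genes. Probe sets did not agree everywhere. Those of Cenpf ranged from -0.05 to 4.64 and those of Bub1b from -0.12 to 3.41. For Top2a the range was -0.41 to 2.83, and for Anln it was 0.13 to 3.36. Mki67 (1.81, adjusted p = 0.0775) and Cdk1 (1.77, adjusted p = 0.0664) did not pass. Of the 33 genes 23 rose without WD-SCC array 1, 23 without WD-SCC array 2 and 17 after cyclic loess.

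Replication genes followed with smaller differences. Of 29 genes 6 rose, against 6.21% of all genes, and none fell (20.7% called, median difference 1.25). Both PD-SCC arrays lay above both WD-SCC arrays for 25 of the 29, against 27.8% of all genes. Ung, which removes uracil from DNA, rose from 5.20 and 4.49 to 7.87 and 7.61. The helicase subunit genes Mcm4 and Mcm2 rose by 1.41 and 1.35. Cdc6, which loads the helicase, was below background in WD-SCC (3.19 and 3.26) and read 4.60 and 4.45 in PD-SCC, at least 1.31-fold higher. With the r2 controls its PD-SCC level lay below the background of WD-SCC, and no fold could be given. With cyclic loess 2 of the 29 rose. The median difference of the list was 0.99 without WD-SCC array 1 and 1.22 without WD-SCC array 2. Mcm4, Mcm2 and Cdc6 each lost their call without at least 1 of the WD-SCC arrays.

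The start regions of the mitotic genes were searched for the cell cycle homology region, CHR, with the letters TTTGAA, and the CCAAT box, because these elements pair at promoters that fire late in the cell cycle. The window and counting were those used for AP-1, and neither motif contains the other. Of 17 rising mitotic genes with a listed start 7 held both motifs (41.2%), and of the 28 listed mitotic genes with a start 11 did (39.3%), against 824 of 13605 tested genes (6.06%). CHR, with or without a CCAAT box, was found in 7 of the 17 (41.2%) and in 14% of tested genes. The CCAAT box, with or without CHR, was found in 13 of the 17 (76.5%) and in 39.6% of tested genes. Over all 877 rising genes with a start, 7.98% held both. Shown are the 3 rising mitotic genes with the smallest p that hold both in the last 150 bases before the start, with matches on either strand in capitals. They lie at chr11:99024190-99024339 (minus strand) for Top2a, chr3:27153855-27154004 (minus strand) for Ect2 and chr19:37376232-37376381 (plus strand) for Kif11.
Top2a: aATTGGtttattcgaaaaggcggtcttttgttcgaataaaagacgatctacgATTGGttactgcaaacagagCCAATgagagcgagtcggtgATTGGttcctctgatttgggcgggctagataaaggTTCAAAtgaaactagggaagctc
Ect2: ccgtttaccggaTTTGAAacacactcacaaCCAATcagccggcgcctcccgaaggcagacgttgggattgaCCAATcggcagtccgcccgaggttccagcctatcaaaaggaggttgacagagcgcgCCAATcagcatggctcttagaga
Kif11: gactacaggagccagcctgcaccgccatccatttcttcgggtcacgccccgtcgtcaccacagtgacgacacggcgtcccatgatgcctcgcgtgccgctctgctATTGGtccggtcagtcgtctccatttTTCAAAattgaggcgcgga
CHR begins 23 bases before the start in Top2a, 138 in Ect2 and 19 in Kif11. Top2a holds 4 CCAAT boxes in this window, Ect2 holds 3 and Kif11 holds 1. Ect2, which activates RhoA in cytokinesis, read 3.15 and 3.45 in WD-SCC and 5.61 and 5.54 in PD-SCC. Kif11, the kinesin that separates the spindle poles, read 3.81 and 4.09 against 7.14 and 7.79. Ect2 has 2 starts in the table. Both genes were below background on each WD-SCC array, and Kif11 was at least 10.1-fold higher.

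Among cell cycle brakes and G1 cyclins, 4 of 29 genes rose and 1 fell (17.2% called, against 9.07% of all genes). Ccng1, a p53 target, rose from 6.10 and 5.81 to 7.79 and 8.20, Ccnd3 rose by 1.52 and Cdkn2d, a CDK4 and CDK6 inhibitor, was at least 2.04-fold higher, a bound that no longer held with the r2 controls. The fourth was the repressor E2f7 (2.71). The 2 probe sets of Ccnd3 had opposite signs, with differences of -0.41 and 1.52. Ccnd2, which encodes cyclin D2, fell from 7.04 and 7.81 to 3.71 and 3.66. Cdkn2a, the gene of p16 and p19Arf, read 7.92 and 8.28 in WD-SCC and 9.19 and 8.90 in PD-SCC, a difference of 0.95 that did not pass (adjusted p = 0.0777). Its neighbours Cdkn2b (0.95) and Mtap (2.07) did not pass either. All 3 genes were measured above background in both stages.

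The 2 largest rises over all genes were those of a water channel and an aldehyde dehydrogenase. Aqp1, the water channel aquaporin 1, read 3.52 and 5.17 in WD-SCC and 10.77 and 10.83 in PD-SCC (difference 6.45, SE 0.61, adjusted p = 0.0233). Aldh3a1, which oxidises aldehydes made by lipid peroxidation, read 4.33 and 4.14 against 9.93 and 11.05 (6.25, SE 0.43, adjusted p = 0.0164). Gfra2, the co-receptor of the nerve growth factor neurturin, read 5.93 and 4.18 against 10.16 and 11.26, and its 3 probe sets differed by 1.09 to 5.65. In each of the 3 genes the lowest PD-SCC value was at least 4 units above the highest WD-SCC value.

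Other large rises covered varied functions. Ank, a regulator of pyrophosphate export, read 3.69 and 4.52 in WD-SCC and 8.67 and 8.61 in PD-SCC. F2r, the thrombin receptor gene, was below background in WD-SCC and at least 19.7-fold higher in PD-SCC. Ldhb, which encodes the H subunit of lactate dehydrogenase, read 5.57 on both WD-SCC arrays and 9.54 and 9.78 in PD-SCC. The chaperone gene Clu (clusterin) rose by 4.07, the cell adhesion gene Ncam1 by 4.10 and the repressor gene Zbtb18 by 4.08. Otud7b (4.39), Plpp1 (4.23) and the spindle gene Psrc1 (4.03) completed the 15. Probe sets of Ncam1 ranged from -0.37 to 4.10 and those of Plpp1 from 0.12 to 4.23.

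Receptor and ligand genes were read next. Of 32 receptor tyrosine kinase genes only Erbb3 was called (3.12%, against 9.07% over all genes), with a fall from 5.42 and 6.18 to 3.92 and 4.05 (adjusted p = 0.0493). This list had 1 rise and 4 falls without WD-SCC array 1, and without WD-SCC array 2 it had 3 falls. Egfr (7.45 and 6.45 to 6.29 and 5.98), Erbb2 (-0.04) and Pdgfra (0.24) did not pass. Pdgfra was below background on both WD-SCC arrays (3.65 and 3.84) and read 4.01 and 3.96 in PD-SCC. Erbb2 read 3.99, below background, and 4.36 in WD-SCC and 4.09 and 4.16 in PD-SCC. Values this near background can hardly show a difference. Fgfr1 was far above background at both stages, with 11.51 and 10.58 in WD-SCC and 10.96 and 10.88 in PD-SCC. Among 29 growth factor ligands Tgfa, an EGFR ligand, fell from 8.52 and 8.88 to 4.67 and 4.76, Fgf18 fell by 2.94 and Pdgfc was at least 2.77-fold higher (10.3% called), and without WD-SCC array 2 the ligands had 4 falls and 1 rise. Of 25 MAPK feedback and immediate early genes 16% were called. The Ras pathway inhibitors Spry4 (1.75), Spred2 (1.24) and Spred1 (2.31) rose, and the stress factor gene Atf3 fell by 1.98. The probe sets of Spred2 ranged from -0.87 to 1.24. Of 5 GDNF family receptor genes Gfra2 and Gfra1 (1.63) rose (40% called), while Ret, the kinase they serve, differed by -0.59 without passing. The 3 probe sets of Gfra1 ranged from -0.08 to 1.63. Of the 5, 1 rose without WD-SCC array 1.

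The TGF-β and BMP list of 30 had 5 rises and no fall (16.7% called, median difference 0.51, or 0.37 with dim genes at their bound). The ligand gene Tgfb2 was below background in WD-SCC (3.98 and 3.78) and read 6.12 and 6.20 in PD-SCC, at least 4.09-fold higher. Ltbp2, a latent TGF-β binding protein family gene, was at least 9.37-fold higher, and the BMP antagonist gene Grem1 rose by 2.57. Inside the cell, the shared mediator gene Smad4 rose by 1.62 and the inhibitor gene Smad7 by 1.18. The receptor genes Tgfbr1 (0.21) and Tgfbr2 (-0.85) did not pass, and with cyclic loess 2 of the 30 rose, without WD-SCC array 1 it was 7 with 1 fall and without WD-SCC array 2 it was 6 with 1 fall. Of 37 Wnt and Hippo genes 3 rose and 1 fell (10.8% called, near the 9.07% of all genes): Tcf7l2, a Wnt effector, from 5.16 and 5.56 to 7.87 and 7.65, Tead1, a DNA-binding partner of YAP, by 1.00 and the YAP target Ankrd1 by 2.29, with a fall of 1.58 for the Wnt antagonist Nkd2. In the Notch list of 19 (15.8% called) the effector gene Rbpj rose from 5.39 and 6.00 to 8.78 and 8.35. The feedback gene Nrarp was at least 2.29-fold lower and the ligand gene Dll1 fell by 0.85. With the r2 controls Nrarp and Dll1 were at or below background in both stages.

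Stem cell and detoxification genes moved in both directions. Of 24 hair follicle and skin stem cell genes 3 rose and 2 fell (20.8% called, against 9.07% of all genes). Nfatc1, a quiescence factor of follicle stem cells, rose from 4.50 and 5.83 to 9.02 and 9.10, and Ezh2, a Polycomb methyltransferase gene, from 4.57 and 3.53 to 6.82 and 7.15. Sox2, below background in WD-SCC, was at least 3.39-fold higher, with 6.33 and 5.45 in PD-SCC. Falls were those of Pitx1, from 7.71 and 9.41 to 3.91 and 4.09, and of Aldh1a3, from 9.53 and 10.49 to 5.08 and 4.74. The 2 probe sets of Pitx1 differed by -4.56 and -0.76, and the 5 of Nfatc1 ranged from 0.74 to 3.90. The NRF2 and aldehyde list of 26 gave 6 falls and 1 rise, that of Aldh3a1 (26.9% called). Hmox1, which encodes heme oxygenase 1, fell from 11.59 and 11.53 to 7.90 and 7.30, and the glutathione transferase gene Gsta4 from 9.59 and 9.72 to 4.73 and 4.67. Nqo1 (-0.23) and Txnrd1 (-0.04), also known targets of NRF2, did not pass.

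Retinoid genes gave 2 rises and 1 fall of 15 (20% called), and 3 rises and 2 falls without WD-SCC array 2. Crabp1, which binds retinoic acid in the cytoplasm, rose from 6.77 and 7.72 to 11.25 and 10.70 and Rdh10, which makes retinaldehyde, from 4.30 and 4.26 to 6.74 and 6.66. Rarres2, the chemerin gene, fell by 2.93, and its 3 probe sets ranged from -3.48 to -0.20. Among 10 aquaporins (20% called) Aqp1 rose and Aqp3, the glycerol channel of keratinocytes, fell from 10.45 and 11.45 to 8.33 and 8.61. Hypoxia and glycolysis gave 1 fall of 21, that of Hk2 (1.96), and 1 fall with 1 rise without WD-SCC array 2. Over all 17097 genes 4859 had an unadjusted p under 0.05 in limma. Of 18 cholesterol synthesis genes 4 did, and none was called. Leaving out either WD-SCC array gave 1 call there. The share called was 4.76% for hypoxia and glycolysis and 3.33% for the 30 Hox genes, under the 9.07% of all genes. The Hox list gave 1 rise, Hoxb5, from 4.25 and 4.47 to 7.05 and 7.08. It gave 2 rises and 2 falls without WD-SCC array 1, and 2 rises without WD-SCC array 2.

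The inflammatory genes that were called all fell. Of 29 chemokine, cytokine and interleukin 1 family genes 4 fell and none rose (13.8% called, against 9.07% of all genes, median difference -1.29). Both PD-SCC arrays lay below both WD-SCC arrays for 20 of the 29, against 37.9% of all genes. Il1f9, an interleukin 1 family gene of epithelia, was at least 39.9-fold lower. Il1rn, the interleukin 1 receptor antagonist gene, fell from 9.64 and 10.68 to 4.83 and 3.80. Csf2, the gene of GM-CSF, fell from 8.57 and 7.88 to 3.47 and 5.08. With Il24 these were the 4 falls, and without WD-SCC array 2 the count was 10. No gene of 19 interferon response genes and none of 15 antigen presentation genes was called by limma, with 3 and 6 at an unadjusted p under 0.05. Over all 17097 genes 4859 had such a p. The interferon list had 1 rise without WD-SCC array 1, and without WD-SCC array 2 the antigen presentation list had 3 falls.

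Markers of other cells were read for the same contrast. Of 24 haematopoietic markers 4 fell (16.7% called, against 9.07% of all genes). These were S100a9 (8.85 and 10.04 to 4.51 and 3.65), S100a8 (at least 39.4-fold lower), Cd68 (by 3.49) and Cd52 (by 1.83). S100a8 and S100a9 are also made by activated keratinocytes. The summed linear level of the list was 2019 and 2839 in WD-SCC and 491 and 346 in PD-SCC, with 9 to 12 of its genes above background on each array. Endothelial and pericyte markers gave 1 fall of 20 (5% called), that of Cldn5 (1.01). Their sum was 467 and 1284 in WD-SCC against 369 and 498 in PD-SCC. Without WD-SCC array 1 the number of falls was 9, and without WD-SCC array 2 it was 2. Pecam1, the endothelial surface gene, read 4.34 and 6.71 in WD-SCC and 3.75 and 3.94 in PD-SCC. Of 20 fibroblast markers S100a4 and Crabp1 rose and Fbln1 fell, with 3 rises and 5 falls without WD-SCC array 1 and 2 and 7 without WD-SCC array 2. Fabp4 was the fall of 13 muscle and adipocyte markers, which had 2 falls without WD-SCC array 2, and Erbb3 that of 11 melanocyte and Schwann cell markers. The 3 probe sets of Fabp4 ranged from -3.27 to -0.07. The keratinocyte and follicle markers gave 5 falls of 13 (Krt5, Krt14, Epcam, Trp63 and Cdh1), and their sum went from 5578 and 4994 to 296 and 283. Shares called were 15% for fibroblast, 7.69% for muscle and adipocyte, 9.09% for melanocyte and Schwann cell and 38.5% for keratinocyte and follicle markers. The part of other cells in the differences above was not tested.

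The second question was whether OT7 moved as the other lineages did. Of the 1061 genes that rose in OT7, 808 (76.2%) were higher in PD-SCC in both OT14 and OT15, where over all genes above 0 in OT7 the share was 52.2%. A difference of at least 1 in both lineages was found for 276 of them (26%, against 9.97%). Of the 490 falls 384 (78.4%, against 50.5%) had the same direction in both, and 231 (47.1%, against 6.46%) by at least 1. The opposite sign in both was seen for 70 rises (6.6%, against 19.1% of all genes above 0) and 39 falls (7.96%, against 15.6% of all genes below 0). The PD-SCC array had less Krt5 in both, with differences of -7.40 in OT14 and -6.60 in OT15, and more Gfra2, with 7.44 and 6.90. Krt8 was 3.77 higher in OT14 and 3.01 lower in OT15, and F2r was 0.60 higher and 2.87 lower. OT14 and OT15 have 1 array a stage, so these differences have no replicate check. The OT15 arrays also differ in Xist and Eif2s3y, as given above, so their difference may not be one of stage alone.

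**Figure D3:**
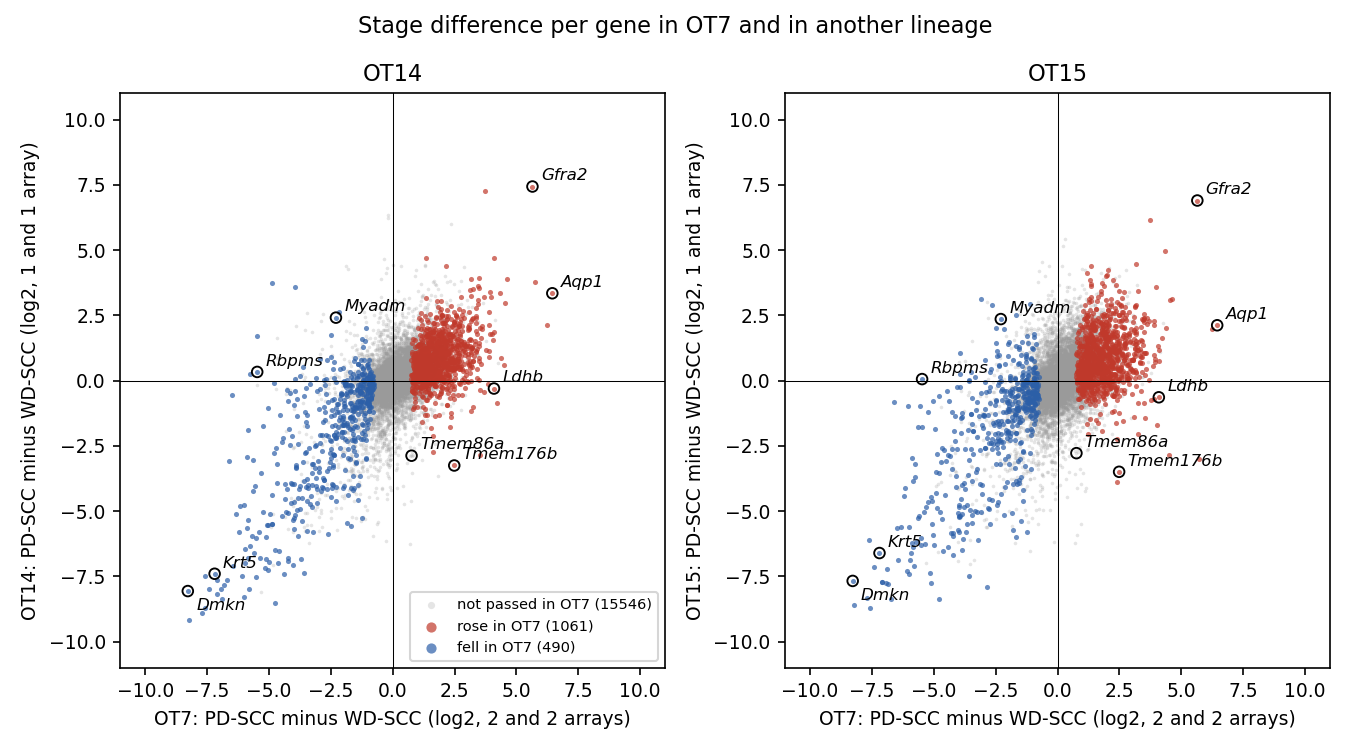
Stage difference of each of 17097 genes in OT7 (horizontal axis, PD-SCC minus WD-SCC, log2) against the same difference in OT14 or OT15 (vertical axis, 1 array against 1), with genes called in OT7 in colour. Krt5 and Dmkn lie in the lower left corner of both panels, while Rbpms, drawn at its fitted OT7 difference of -5.47, lies near 0 in both.

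The difference between the stage effect of OT7 and that shared by OT14 and OT15 was tested in a fit over all 8 arrays with the lineage as a block. It called 5 genes (0.0292%), with 2468 at an unadjusted p under 0.05. Rbpms, an RNA-binding protein gene, read 8.98 and 8.94 in OT7 WD-SCC and 3.60 and 3.37 in OT7 PD-SCC, while OT14 went from 8.50 to 8.84 and OT15 from 8.73 to 8.79 (difference of effects -5.67, SE 0.21, adjusted p = 0.0258). Rbpms was below background on both OT7 PD-SCC arrays and at least 39.1-fold lower than in OT7 WD-SCC, though its 4 probe sets differed by between -5.47 and -0.48. Ldhb rose in OT7 and was 0.30 lower in OT14 and 0.64 lower in OT15 (adjusted p = 0.0423). Tmem176b, a membrane protein gene, read 7.72 and 7.59 in OT7 WD-SCC and 9.82 and 10.47 in OT7 PD-SCC, but 7.91 and 4.66 in OT14 and 7.50 and 4.01 in OT15 at the same stages (5.86, adjusted p = 0.049). Myadm, a gene of membrane rafts, fell by 2.29 in OT7 and was 2.41 and 2.36 higher in the others (-4.68, adjusted p = 0.049). Tmem86a differed by 0.76 in OT7, without a call there, and by -2.87 and -2.78 in the others (3.59, adjusted p = 0.0423). None of the 5 was called once any OT7 array was left out, or with OT14 or OT15 as the only other lineage.

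In all, 46 genes were called in OT7 with a fitted difference of at least 2 and differed by under 0.5 in both other lineages. They were 36 of 372 rises and 10 of 250 falls of at least 2. Among all genes with an OT7 difference of at least 2, called or not, it was 52 of 533 above 0 and 21 of 396 below 0. With OT7 differences of any size, 40.2% of all genes above 0 in OT7 and 65.8% of those below 0 differed by under 0.5 in both. Rbpms was 1 of the 46 and the only one that passed the test of the difference of effects. Hmox1 belonged here, with 10.91 and 10.96 in OT14 and 11.80 and 11.55 in OT15 at WD-SCC and PD-SCC (adjusted p = 0.0561 for the difference of effects). So did Cd200, an immune inhibitory ligand gene, which fell from 8.17 and 7.86 to 4.77 and 4.27 in OT7 (adjusted p = 0.0594), and Tgfb2 (adjusted p = 0.0561). Chosen after their values were seen, Bcl2l11, the gene of the death factor BIM, rose from 5.08 and 5.99 to 9.42 and 9.03 in OT7, where OT14 read 9.12 and 8.68 and OT15 8.13 and 8.16. Deptor, an mTOR inhibitor gene, rose from 3.86 and 3.66 to 6.90 and 6.69, and stayed at 3.29 to 3.72 in both other lineages. Within PD-SCC the difference of Deptor from the other lineages was past the threshold (adjusted p = 0.00703), and within WD-SCC that of Bcl2l11 was not (adjusted p = 0.0636).

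Levels were then compared with the other lineages within each stage (limma, 4 groups over 8 arrays). In WD-SCC 84 genes (0.491%) differed, 63 of them lower in OT7 and 21 higher, whereas without OT7 WD-SCC array 1 it was 32 lower and 37 higher. The lowest relative to the others were Calml3, a calmodulin-like keratinocyte gene (4.24 and 4.65 in OT7, 8.69 in OT14 and 9.01 in OT15, difference -4.41, adjusted p = 0.00672), Tmprss11e, Ltf (lactoferrin), Krt23 and Ccl21b. Ltf differed by -4.29, Krt23 by -4.26 and Ccl21b by -4.18, and Tmprss11e, below background on both OT7 arrays, was lower by at least 14.1-fold. With the r2 controls Calml3 and Krt23 were below background on both OT7 WD-SCC arrays as well. At the PD-SCC stage Calml3 was below background on the arrays of all 3 lineages, and Krt23 read 3.77 and 3.93 in OT14 and OT15 and did not differ from OT7 past the threshold (-0.13). Smoc2, a matricellular gene, was higher in OT7 WD-SCC (7.76 and 7.88 against 4.55 and 3.92, adjusted p = 0.0188), as were Tctex1d2, AU018091, Rrad and Snrpd1. In PD-SCC 141 genes (0.825%) differed, 105 of them higher in OT7. Tmem176b, Tmem176a and Ldhb led these, with differences of 5.81, 5.75 and 4.98, followed by Aldh3a1 (3.91) and the sodium pump subunit gene Atp1b1 (3.73). Rbpms (at least 35.3-fold lower), the cannabinoid receptor gene Cnr1 (-3.75), Cd200 (-3.73), Hmox1 (-3.65) and Adam8 (-3.35) were lowest. The PD-SCC count fell to 11 without OT15 (4 higher and 7 lower), to 55 without OT14, and to 6 and 1 without OT7 PD-SCC array 1 and array 2. In WD-SCC it was 82 without OT15, 143 without OT14, and 69 and 273 without OT7 WD-SCC array 1 and array 2.

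The 2 arrays of each stage were then compared with each other. In PD-SCC, array 2 was above array 1 by at least 1 for 394 genes (2.3%) and array 1 above array 2 for 205 (1.2%). Of the 19 interferon response genes 13 were higher on array 2 by at least 1 and none on array 1 (median gap 1.70). Oasl2, an interferon-induced antiviral gene, read 4.29 on PD-SCC array 1 and 9.31 on array 2, and 7.74 and 7.45 on the WD-SCC arrays. Rtp4 (4.58 and 8.69) and Gbp7 (4.41 and 8.37), also induced by interferon, and Gm9706 (3.99 and 7.82) showed the same order. The WD-SCC arrays lay between the PD-SCC arrays for Oasl2, Rtp4, Gbp7 and Gm9706, so the stage difference of these genes (-0.80, -0.31, 1.04 and -1.47) averages 2 unlike arrays. Cryab, a small heat shock protein gene, went the other way, with 7.45 on PD-SCC array 1 and 3.70 on array 2, against 11.11 and 10.99 in WD-SCC. Of 33 mitotic genes 1 was higher on array 2 by at least 1, and none on array 1.

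In WD-SCC, array 2 was above array 1 by at least 1 for 1054 genes (6.16%) and array 1 above array 2 for 578 (3.38%). Endothelial genes were brighter on array 2, where Selp (P-selectin) read 8.46 against 3.84 and Cdh5 (VE-cadherin) 8.75 against 4.31. Of 20 endothelial and pericyte markers 7 were higher there by at least 1, and 1 on array 1. Fibroblast and matrix genes had the opposite order, with 10 of 20 fibroblast markers and 12 of 27 matrix genes higher on array 1 by at least 1, against 0 and 1 on array 2. Of the 29 chemokine and cytokine genes 12 were higher on array 1 and 3 on array 2, and of the 35 late differentiation genes 2 and 8. Has1, a hyaluronan synthase gene, read 8.03 on array 1 and 3.51 on array 2, Ctsk (cathepsin K) 9.68 and 5.18, and Il33, an alarmin, 8.13 and 3.82. None of these 5 genes was called between stages.

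**Figure D4:**
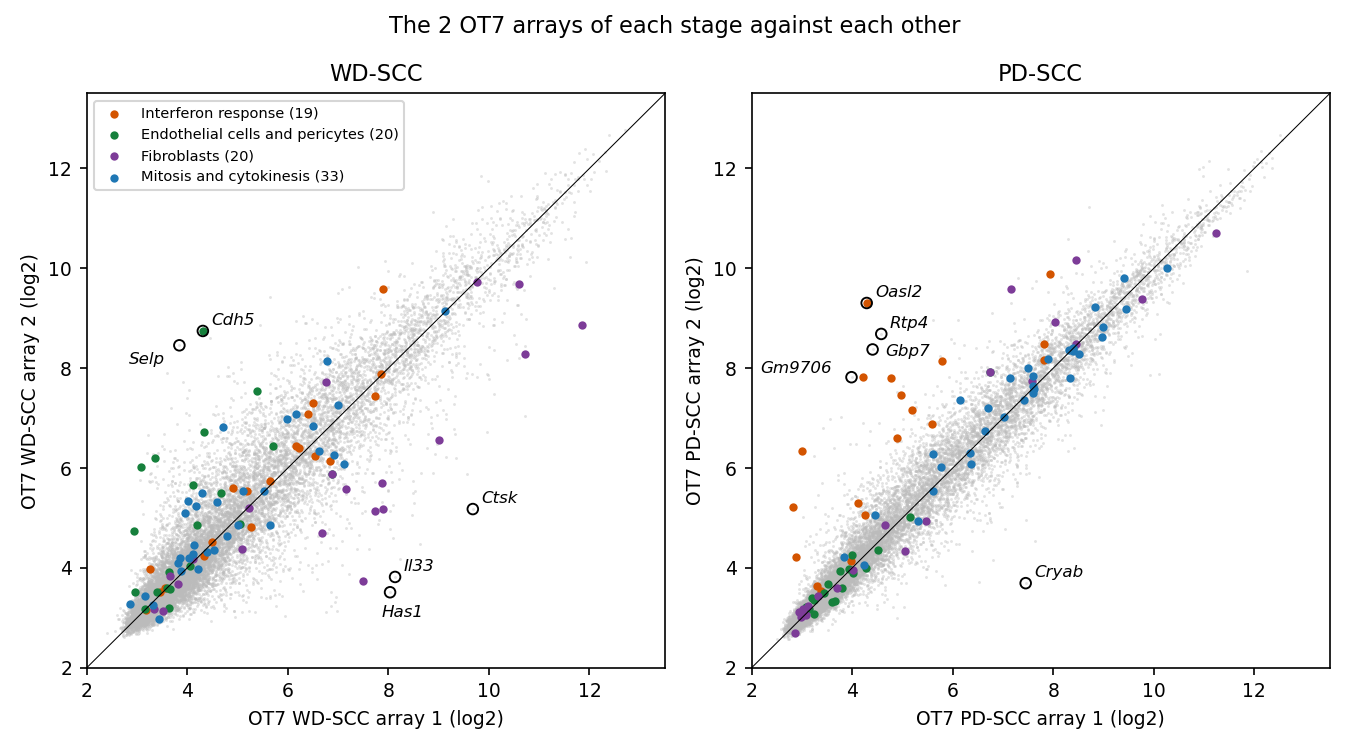
Level of each gene on array 1 (horizontal axis, log2) and array 2 (vertical axis, log2) of OT7 WD-SCC (left) and PD-SCC (right), with the genes of 4 lists in colour and the 5 widest gaps of each stage circled. Interferon response genes lie above the diagonal in PD-SCC, up to 9.31 against 4.29 for Oasl2, and endothelial and fibroblast markers lie on opposite sides of it in WD-SCC.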

How the data were processed

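Sorted cells were profiled on Affymetrix mouse arrays, from biotin-labelled cRNA of total RNA, per the labels' protocols. The authors deposited 1 log2 value per probe set and array. They were made with RMA in affy, per the submitters' processing notes; RMA subtracts background, equalises the distributions of arrays by quantiles and combines the probes of a set. Tool versions: not given in the sources used here. Scanner files were not used, so quantile normalisation, which gives arrays a common distribution, could not be undone. Depth does not apply to arrays, and their number limits the precision.

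Gene names came from the platform annotation and were brought up to date with a RefSeq table of genes (build GRCm38.p6) by Entrez number, which matched 99.3% of the single-symbol probe sets. Probe sets with several symbols (551), with none (15588) and controls (104) were left out. Of 824 symbols in 38 gene lists, 73 had no probe set of 1 gene and are not analysed here.

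Tests used R 4.3.3 and limma 3.58.1 (lmFit and eBayes, two-sided) with Benjamini-Hochberg adjustment over 17097 genes. The OT7 fit had 2 residual degrees of freedom, that of the difference of effects 3 and those within stages 4. A bound sets the brighter stage's mean against the mean, over the dimmer stage's arrays, of the higher of the gene and the bacterial control. Named genes were the 15 largest rises and falls, up to 4 called genes per list by smallest p, the 5 largest differences each way in the other comparisons, the 5 widest gaps between the arrays of a stage, and 28 fixed genes. Further list members were named with their values in view. The genes, lists and tests were chosen with earlier results of these data known. The fits were tested on simulated data. Plots used Python 3.11.15 with matplotlib 3.10.9.

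Alternatives were other probe set choices, cyclic loess, 75th percentile scaling, a trended robust prior, a filter on dim genes, values raised to the controls, other sets of arrays and leaving out each array; a background level with the r2 controls was added after seeing the data.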

Additional observations from a re-analysis of the deposited data

Results flagged for a closer look

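Each gene here had a fitted stage difference in OT7 unlike those in OT14 and OT15. All but Tmem86a were called between the OT7 stages. The difference of the stage effects itself passed limma's test for Rbpms (-5.67, with OT7 PD-SCC below background), Myadm (-4.68), Ldhb (4.56), Tmem176b (5.86) and Tmem86a (3.59). For the others all OT7 arrays moved one way and the arrays of both other lineages the opposite way, and the test of the difference of effects was not past the threshold. Tmem176a was 3.55 higher in OT7 PD-SCC (adjusted p of the difference of effects 0.0796) and 2.84 and 1.43 lower in OT14 and OT15. It is the neighbour and close relative of Tmem176b. Atp1b1, a sodium pump subunit gene, was 3.24 higher in OT7 (0.0594), Rdh10 2.42 higher (0.164) and Tgfb2 2.28 higher (0.0561), where Tgfb2 was below background in OT7 WD-SCC and the size is a fitted one. Fgf18, a growth factor gene, had a difference of -2.94 in OT7 (0.0707) against 0.81 and 0.78, Tctex1d2, a dynein light chain gene, one of -2.14 (0.0594) and Fbln1 one of -1.27 (0.0594). In OT7 the 2 probe sets of Tctex1d2 differed by -2.14 and -0.31, and the 3 of Fbln1 ranged from -1.27 to -0.05. The values of Tgfb2 in OT14 and OT15 differed by only -0.16 and -0.20 between stages, less than the 0.254 that was the median gap between the OT7 WD-SCC arrays.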

How the results depend on the processing

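With values raised to the bacterial controls the OT7 stage test called 10145 genes (2069 rises, 8076 falls), because 5678 genes at or below the control on all 4 arrays then take the stage difference of the controls themselves. The same setting turned Uty, a Y-linked gene below background, to -0.46 (adjusted p = 0.0133). Leaving out each OT7 array gave 0 to 1857 calls, where the lone array of a stage is assumed to vary like the pair of the other stage. The count stayed within 1.5 times of 1551 with a gene's probe sets averaged (1442), a trended robust prior (1833), the filter on dim genes (1924), 75th percentile scaling (1943), cyclic loess (1269), probe sets chosen on the OT7 arrays (1530), all 8 arrays in the fit (1551), a 2-fold minimum (1399) and every probe set on its own (2324 of 28898).

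Of the 160 named genes 129 were past the threshold. All 129 lost their call without either PD-SCC array, where the spread comes from the WD-SCC pair alone. Without WD-SCC array 1 the call was lost for 25 genes and without WD-SCC array 2 for 16. The 27 genes that lost it in at least 1 of these cases were Krt8, Otud7b, Prrx1, Cdc6, Mcm4, Mcm2, Ccnd3, Cdkn2d, Fgf18, Gfra1, Ltbp2, Smad7, Nkd2, Tead1, Ankrd1, Dll1, Hk2, Csf2, Cd68, Cldn5, Tmem176b, Rrad, Calml3, Ccl21b, Tmem176a, Atp1b1 and Itga6. The mean of probe sets lost 13 calls, cyclic loess 12, the trended prior 6, 75th percentile scaling 4 and the filter on dim genes 1.

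The difference of effects between OT7 and the other lineages called 5 genes, 21 with the mean of probe sets, 8 with 75th percentile scaling, 62 with the trended prior, 8 with the filter on dim genes and 128 with raised values. It called 0 with 1 mean per lineage and stage, against OT14 alone and against OT15 alone (2484, 1803 and 2273 at an unadjusted p under 0.05), and 0 to 0 with each OT7 array left out (1738 to 3294). Within WD-SCC the count of 84 became 161 with 75th percentile scaling, 127 with the filter and 294 with raised values, and 69 to 273 with each array left out. Within PD-SCC the count of 141 became 340 with raised values and 1 to 55 with each array left out, and its split of 105 higher and 36 lower became 87 and 59 with 75th percentile scaling. The cause of these changes was not tested. No paired analysis was run because the labels give no full pairing: the OT7 stages share 1 replicate number and 1 WD-SCC array has none.

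Signal over background limits what can be said of dim genes: 309 of the called genes have only a lower bound, more with the r2 controls, a setting chosen after seeing the data, and 6 called genes were at or below the controls in both stages. With 2 arrays a stage from 1 lineage, a gene that did not pass is not shown to be alike in both.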

Other observations

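Immediate early genes, which respond within minutes to growth factor signals and to tissue handling, differed between the PD-SCC arrays. Of 25 MAPK feedback and immediate early genes 8 were higher by at least 1 on PD-SCC array 2 and 2 on array 1, where the shares over all genes were 2.3% and 1.2%. Fos read 8.70 on array 1 and 10.35 on array 2, Egr1 10.89 and 11.99 and Jun 7.89 and 9.53. The WD-SCC arrays read 8.35 and 8.92 for Fos, 9.29 and 9.80 for Egr1 and 9.60 and 9.76 for Jun, and none of the 3 was called between stages. Chemokine genes had the same order: Ccl2 read 8.29 and 10.59, Cxcl10 6.11 and 8.96 and Cxcl5 3.77 and 7.03 on the PD-SCC arrays. In all, 8 of 29 genes of that list were higher on array 2 by at least 1 and 1 on array 1.

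Hypoxia and glycolysis genes had the opposite order, with 5 of 21 higher by at least 1 on PD-SCC array 1 and none on array 2. Bnip3, a mitophagy gene induced by low oxygen, read 6.38 on array 1 and 4.34 on array 2, and Slc2a1, the main glucose transporter gene, read 9.69 and 8.63. Ndrg1 read 8.09 and 6.86, against 10.82 and 9.85 in WD-SCC. Immunoproteasome genes, which interferon induces, were higher on array 2, with 8.27 and 9.33 for Psmb8 and 6.47 and 7.92 for Psmb10. These genes were chosen after their values were seen, and the labels give no difference between the PD-SCC arrays beyond their number.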
